A study of Mus musculus with 9 samples.

Results

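The effect of losing delta-sarcoglycan on the mouse left ventricle was measured as an average over 2 treatments. All 9 libraries of the series entered the comparison, 5 from knockout (KO) mice, labelled dSG knockout, and 4 from wild-type (WT) mice. The WT libraries comprised 2 from vehicle-treated and 2 from ifetroban-treated mice, and the KO libraries 2 from vehicle-treated and 3 from ifetroban-treated mice. Polyadenylated RNA was sequenced and reads were counted per gene. For each gene the KO minus WT difference was taken under vehicle and again under ifetroban, and the mean of both differences is the averaged effect, so that each treatment has the same weight. Strain, age, dose and the exons removed in the knockout are not given in the sources used here. Whether each library stands for its own animal is not stated, so p-values describe the spread among these libraries, which may in part be technical.

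Delta-sarcoglycan, encoded by Sgcd, is a membrane protein of the sarcoglycan group within the dystrophin-glycoprotein complex of striated muscle. The complex anchors the cytoskeleton of the muscle cell to the basement membrane outside it, and without it the cell membrane is prone to damage during contraction. Hearts without delta-sarcoglycan develop a cardiomyopathy with loss of muscle cells and scarring. Ifetroban blocks the receptor for thromboxane and related prostanoids, which the gene Tbxa2r encodes.

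The targeted gene was read first, since it checks the labels. Sgcd (ENSMUSG00000020354, GRCm38 chromosome 11, 46896253 to 47988969, minus strand) had 11.1 and 28.9 CPM in WT vehicle, 33.1 and 31.2 in WT ifetroban, 7.49 and 12.1 in KO vehicle and 9.76, 16.4 and 18.5 in KO ifetroban, where CPM are counts per 1000000 reads in genes after TMM scaling of library sizes. The highest KO value lay below 3 of the 4 WT values, but the library labelled WT vehicle replicate 1 lay inside the KO range. The averaged log2 difference was -1.07 ± 0.29 (SE), with edgeR adjusted p = 0.13, so Sgcd did not pass the threshold of 0.05. Counts were summed over all exons of the gene, and reads from exons outside a deleted part would still be counted. For Pttg1 and Cyfip2, which lie on the same chromosome as Sgcd and are described below, the library labelled WT vehicle replicate 1 lay on the WT side, far from every KO library, though apart from the other WT libraries.

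Library depth lay between 21299748 and 31394548 reads in genes. The first principal component of log2 CPM held 47.5% of the variance and set KO vehicle replicate 1 (score 84.4) and KO ifetroban replicate 1 (34.2) apart from the other libraries (-38.2 to 2.02). On it the library labelled WT vehicle replicate 1 (-4.23) lay among KO libraries, with the other WT libraries at -38.2 to -32.4. The second component (16.9%) set that library (52.2) apart from all others (-27.7 to 11.3). Libraries also differed in how they weighted long transcripts. The deviation of a library from the mean log2 CPM correlated negatively with exonic length across genes (Spearman -0.417 to -0.290) in KO ifetroban replicate 1, in KO vehicle replicates 1 and 2 and, among WT, in the library labelled WT vehicle replicate 1. It correlated positively (0.302 to 0.386) in the other 5 libraries, 2 KO and 3 WT. No KO vehicle library was thus in the class high in long transcripts, and no WT ifetroban library in the class low in them. Differences between length classes and between treatments therefore cannot be fully told apart. Across the tested genes, the averaged difference itself had a Spearman correlation of -0.258 with exonic length, a description in which all genes share the same 9 libraries. The median exonic length was 3307 bases for the genes that rose and 4182 for all tested genes. Values within the 2 length classes, and without the libraries that stood apart, are given for the genes that rose, by role, and for the lists where they are named. The values within length classes are differences of mean log2 CPM with a prior count of 2, with treatments pooled. The averaged difference is computed otherwise, so a smaller value within both classes does not by itself show a smaller effect.

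Of 15261 genes tested, 77 rose in KO and 5 fell (0.505% and 0.0328% of the tested genes, 0.537% together) at an adjusted p under 0.05 in edgeR's quasi-likelihood test. Before adjustment, 1611 genes (10.6%) were higher and 906 (5.94%) lower at a p under 0.05, 16.5% in all. The genes that rose had a median log2 difference of 1.33, from 0.69 for Ecm1 to 5.96 for Sprr1a. There were 23 with a difference under 1 and 21 with one over 2. In 76 of the 77, every KO library lay above every WT library, the exception being Mgp; over all tested genes this held for 5.03%. All 5 KO libraries lay below all 4 WT libraries for the 5 genes that fell and for 2.28% of the tested genes, which makes 7.31% nonoverlapping in either direction. The share of nonoverlapping genes with KO above was thus 68.8% with TMM scaling and 89.8% without it. By the sign of the difference alone, the tested genes were balanced, with 49.5% positive and a median of -0.0036. Without TMM scaling every log2 difference is 0.05 higher and 56.2% are positive, while all 82 changed genes keep their sign.

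The adjusted p of these genes lay close to the threshold, above 0.04 for 48 of the 82. Leaving out the library labelled WT vehicle replicate 1 ended the call for all 77 genes that rose and left 2 of the 5 that fell. Without WT vehicle replicate 2, WT ifetroban replicate 1 or WT ifetroban replicate 2, the genes called higher numbered 1, 0 and 1, and without KO ifetroban replicates 1, 2 and 3 they numbered 19, 3 and 6. They numbered 25 without KO vehicle replicate 1, 22 without both that library and the library labelled WT vehicle replicate 1, and 1337 without KO vehicle replicate 2. In each of these 10 fits all 82 genes kept their sign and an unadjusted p under 0.05. The median log2 difference of the 77 lay between 1.18 without KO vehicle replicate 1 and 1.43 without WT ifetroban replicate 1. Within length classes all 82 kept their sign, with medians of 1.26 and 1.16 for the 77 in the classes low and high in long transcripts. The 82 genes were chosen in these same libraries, so their kept sign, here and in the fits above, is not independent support. With the length class as a term of the fit, 7 genes remained called higher (Col1a1, Col3a1, Col5a2, Fcrls, Ltbp2, Mpeg1 and Thbs4) and 2 lower (Pttg1 and Cyfip2).

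**Figure D1:**
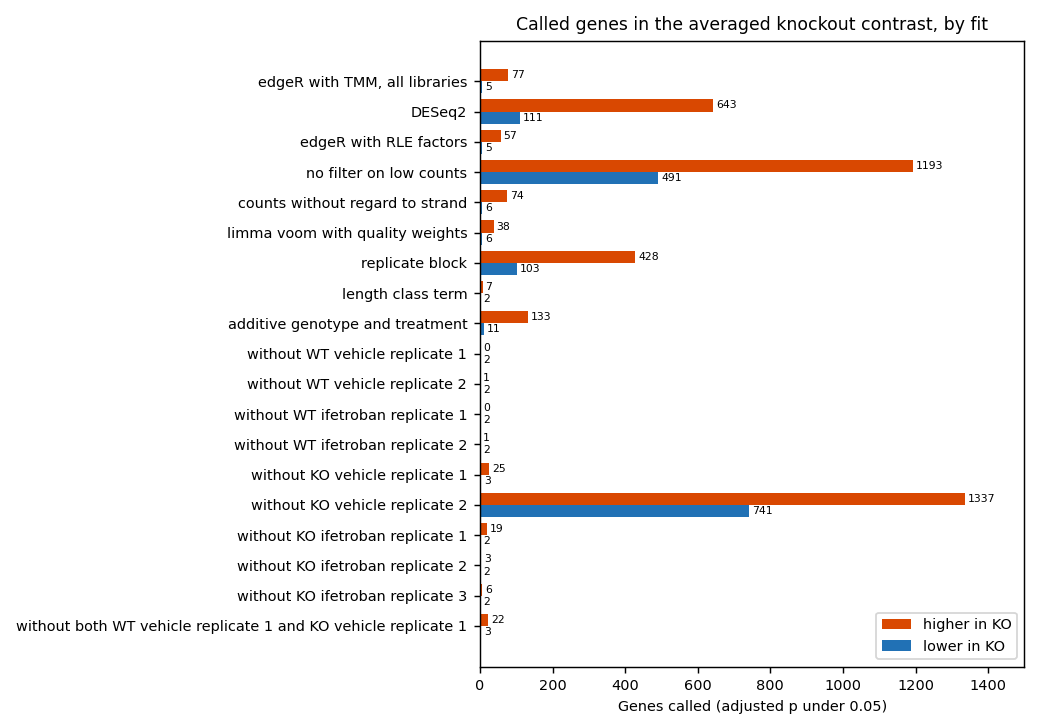
Number of genes called higher (orange) and lower (blue) in KO at an adjusted p under 0.05, for each fit, on a linear axis. The edgeR fit with all libraries gives 77 and 5, and the counts without 1 library run from 0 to 1337 higher.

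Of the 5 genes that fell, 4 lie on chromosome 11 near Sgcd. Pttg1, which encodes securin, an inhibitor of sister chromatid separation, had the largest fall. It had 76.7 and 46.5 CPM in WT vehicle, 46.6 and 46.2 in WT ifetroban, 1.72 and 2.46 in KO vehicle and 1.96, 1.66 and 1.94 in KO ifetroban (ENSMUSG00000020415, GRCm38 chromosome 11, 43420250 to 43426251, minus strand). All KO libraries were low and close together, and none came near the WT libraries. The log2 difference was -4.76 ± 0.20 (edgeR adjusted p = 9.43e-06). The 250 bases before its RefSeq start are printed here because this gene changed most among those that fell, and none of the motifs searched below was found in them. RefSeq places this start inside the GENCODE gene given above, so the stretch overlaps that gene. It lies at chr11:43425982-43426231 on the minus strand, is written 5′ to 3′ in the direction of the gene as in RefSeq (GRCm38.p6), and has no capitals because no motif was found.

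Pttg1 promoter: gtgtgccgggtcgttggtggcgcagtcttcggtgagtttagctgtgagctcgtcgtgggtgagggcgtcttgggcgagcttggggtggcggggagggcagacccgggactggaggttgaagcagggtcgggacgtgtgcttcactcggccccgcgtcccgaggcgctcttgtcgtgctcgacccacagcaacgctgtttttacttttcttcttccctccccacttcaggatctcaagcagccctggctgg

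Cyfip2, a subunit of the complex that controls actin branching, had 194 and 266 CPM in WT vehicle, 255 and 264 in WT ifetroban, 17.5 and 33 in KO vehicle and 25.6, 27.6 and 44.8 in KO ifetroban. Here too the groups were far apart, and the log2 difference was -3.09 ± 0.24 (edgeR adjusted p = 0.00185). Pttg1 and Cyfip2 were called in all 9 fits that left out 1 library. Ublcp1, a ubiquitin-like domain phosphatase, had 33.7 and 25.6 CPM in WT vehicle, 23.3 and 22.9 in WT ifetroban, 13.9 and 16.8 in KO vehicle and 15.3, 14.3 and 14.1 in KO ifetroban. Its fall was smaller, -0.81 ± 0.13 (edgeR adjusted p = 0.0399), with no overlap between genotypes. An unnamed antisense gene model, Gm12167, fell by 2.19 on the log2 scale. The gaps to Sgcd were 3.47 Mb for Pttg1, 2.43 Mb for Ublcp1, 0.583 Mb for Cyfip2 and 0.551 Mb for Gm12167. Within 10 Mb of Sgcd, 4 of 139 tested genes changed (2.88%), all of them lower in KO, while elsewhere 77 rose and 1 fell among 15122 (0.516%). The gene that fell elsewhere was Sv2c on chromosome 13, a synaptic vesicle protein, at 1.08 to 2.53 CPM in WT and 0.327 to 0.698 in KO. Pttg1 is also a cell cycle gene, and no other of the 30 tested cell cycle genes changed. The other cell cycle members, among them genes of replication and mitosis, included 16 with a positive difference, and the list median was 0.09. The cell cycle median was 0.48 under vehicle and -0.28 under ifetroban, and 0.91 in the libraries low in long transcripts and -0.35 in the others. Treatment and length class cannot be fully told apart here. At an unadjusted p under 0.05, 2 of the 30 cell cycle genes were higher and 1 lower, against 10.6% and 5.94% of all tested genes.

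**Figure D2:**
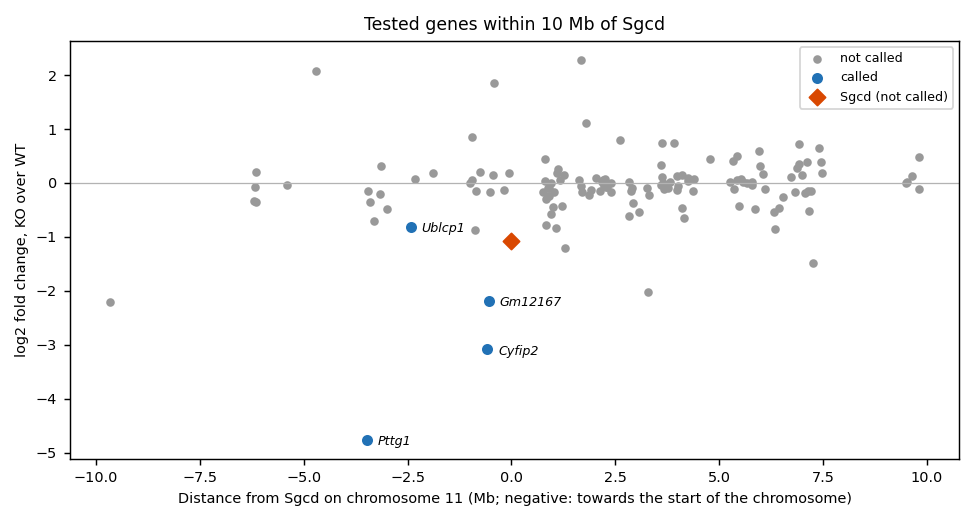
Averaged log2 difference, KO minus WT, of the tested genes within 10 Mb of Sgcd against distance from Sgcd in Mb; blue points are called genes, grey points genes not called, and the orange diamond is Sgcd. Pttg1 at -4.76 and Cyfip2 at -3.09 are the lowest points, and no gene in the window was called higher.

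Most genes that rose encode matrix or leukocyte proteins, by roles assigned after the list was known. Of the 76 with a proper symbol, 20 encode matrix proteins or enzymes that assemble them, 9 secreted signals and other stromal proteins, 29 leukocyte proteins, 4 stress proteins of cardiomyocytes and 3 acute-phase or complement proteins. The other 11 have other roles. The median differences were 1.16 for matrix, 0.88 for stromal, 1.33 for leukocyte, 1.96 for stress and 3.21 for acute-phase genes. Without KO vehicle replicate 1 they were 1.16, 0.91, 1.18, 1.76 and 2.40, and without the library labelled WT vehicle replicate 1 they were 1.21, 0.95, 1.33, 2.05 and 3.38. In the libraries low in long transcripts they were 1.23, 0.91, 1.26, 2.07 and 2.68, and in the others 1.1, 0.80, 1.25, 1.43 and 2.47. In bulk tissue, more cells of a type and more RNA per cell cannot be told apart, and this holds for each group below.

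Matrix genes rose across collagens, cross-linking enzymes and matricellular proteins. Thbs4, a thrombospondin secreted into injured muscle and tendon, had 6.26 and 5.14 CPM in WT vehicle, 7.97 and 8.47 in WT ifetroban, 61.5 and 33.7 in KO vehicle and 20.7, 18.9 and 15.9 in KO ifetroban (ENSMUSG00000021702, GRCm38 chromosome 13, 92751590 to 92794818, minus strand). Every KO library exceeded every WT library, with KO vehicle replicate 1 the highest. The log2 difference was 2.12 ± 0.20 (edgeR adjusted p = 0.00549), the smallest adjusted p among the genes that rose. Ltbp2, a microfibril protein related to the binding proteins of latent TGF-beta, had 2.87 and 5.56 CPM in WT vehicle, 8.7 and 8.2 in WT ifetroban, 54.1 and 45.2 in KO vehicle and 21, 17.7 and 35.3 in KO ifetroban. The groups did not overlap, and the difference was 2.54 ± 0.26 (edgeR adjusted p = 0.0091). Postn, a matricellular protein of activated fibroblasts, had 40.3 and 37.8 CPM in WT vehicle, 61.1 and 41.3 in WT ifetroban, 138 and 295 in KO vehicle and 84.2, 111 and 149 in KO ifetroban, with KO vehicle replicate 2 the highest. Its difference was 1.82 ± 0.26 (edgeR adjusted p = 0.0305). Tnc, a matricellular protein of wounds and remodelling hearts, spread widely among KO libraries, with 0.975 and 1.51 CPM in WT vehicle, 3.14 and 1.27 in WT ifetroban, 146 and 7.42 in KO vehicle and 49.3, 54.5 and 18.2 in KO ifetroban. The lowest KO library still had over 2 times the highest WT value, and the difference was 5.06 ± 0.85 (edgeR adjusted p = 0.045), or 3.36 without KO vehicle replicate 1. Cthrc1, a secreted collagen triple helix protein of activated fibroblasts, had 0.0513 to 0.345 CPM in WT and 1.05 to 3.65 in KO, a difference of 3.56 ± 0.41 (edgeR adjusted p = 0.0142). Ltbp2 was counted among the other structural matrix genes. Of 16 tested matricellular proteins 4 rose (Thbs4, Postn, Tnc and Cthrc1) and none fell, against 0.505% called higher over all tested genes. The list median was 1.36, against -0.0036 over all tested genes, and it was 0.88 and 1.01 in the libraries low and high in long transcripts.

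The Thbs4 promoter is shown as that of the gene with the smallest adjusted p among those that rose. It lies at chr13:92794819-92795068 on the minus strand (RefSeq, GRCm38.p6, 250 bases before the RefSeq start, 5′ to 3′ along the gene). Capitals mark matches, on either strand, to GGAATG, the core letters of the TEAD motif, and to GAGGAA, the core letters of the PU.1 motif. The TEAD letters occur at 197 and 192 bases before the start, the matches sharing bases, and the PU.1 letters at 245.

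Thbs4 promoter: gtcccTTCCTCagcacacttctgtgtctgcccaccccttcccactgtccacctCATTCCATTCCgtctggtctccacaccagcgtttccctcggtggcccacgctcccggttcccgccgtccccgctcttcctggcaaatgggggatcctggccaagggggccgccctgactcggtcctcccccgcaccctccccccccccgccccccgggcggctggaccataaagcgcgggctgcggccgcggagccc

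Among fibrillar collagens, Col1a1, a chain of type I collagen, had 113 and 149.6 CPM in WT vehicle, 171 and 144 in WT ifetroban, 265 and 296 in KO vehicle and 218, 298 and 296 in KO ifetroban, a difference of 0.94 ± 0.15 (edgeR adjusted p = 0.0433). KO and WT libraries did not overlap, and the KO libraries spread little. Col3a1, the chain of type III collagen, had 159 and 263 CPM in WT vehicle, 288 and 218 in WT ifetroban, 454 and 557 in KO vehicle and 397, 526 and 563 in KO ifetroban, with a difference of 1.11 ± 0.19 (edgeR adjusted p = 0.045). Again no libraries overlapped. Col5a2 and Col8a1, chains of type V and type VIII collagen, had differences of 0.97 and 0.92. Of all tested genes 0.505% were called higher and 49.5% were positive. In the collagen list 4 of 21 rose, none fell and 18 were positive, with a median of 0.55. Its median was 0.96 in the libraries low in long transcripts and 0.28 in the others. Per kilobase of exonic length, Col3a1 had 23.6 in WT and 50.9 in KO and Col1a1 22 in WT and 41.8 in KO, in mean CPM per kilobase.

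Enzymes that process and cross-link collagen rose with it. Lox, the lysyl oxidase that begins cross-linking, had 4 and 5.79 CPM in WT vehicle, 4.52 and 5.31 in WT ifetroban, 62.2 and 17.9 in KO vehicle and 22, 21.1 and 18.2 in KO ifetroban. KO vehicle replicate 1 was far above the other KO libraries, and the lowest KO value was over 3 times the highest WT value; the difference was 2.54 ± 0.33 (edgeR adjusted p = 0.0248), or 1.95 without that library. Loxl1, a lysyl oxidase best known for elastic fibres, had 43.3 and 47.7 CPM in WT vehicle, 39.7 and 44.2 in WT ifetroban, 115 and 81.2 in KO vehicle and 78.1, 75.3 and 74.8 in KO ifetroban, with no overlap and a difference of 0.98 ± 0.13 (edgeR adjusted p = 0.0248). Pcolce, an enhancer of procollagen cleavage, had 43 to 51.7 CPM in WT and 60.9 to 91.3 in KO, a difference of 0.71 ± 0.12. P4ha3, a prolyl hydroxylase subunit, rested on 1, 4, 1 and 1 reads in the WT libraries, and its difference of 3.53 ± 0.48 is imprecise. These 4 were called among 22 collagen enzymes, of which 18 were positive (median 0.53, or 0.59 and 0.31 in the libraries low and high in long transcripts). Of all tested genes 0.505% were called higher and 49.5% were positive. Of 30 other structural matrix genes 6 rose and none fell (median 0.69, or 0.84 and 0.55 in the same order). They included Bgn, a small proteoglycan, at 195 to 229 CPM in WT and 283 to 505 in KO (0.87 ± 0.13). Mfap5, a microfibril protein, had 12 to 26.5 and 28.1 to 88.8 (1.52 ± 0.24), and Mgp, matrix Gla protein and an inhibitor of calcification, had 77.7 to 109 and 103 to 222 (0.89 ± 0.14). Only Mgp overlapped between genotypes. Fn1, fibronectin, rose by 1.51 ± 0.25, and Vcan, the large proteoglycan versican, by 1.21 ± 0.20. Of 24 matrix proteases and inhibitors edgeR called only Mmp8, the collagenase of neutrophils (2.86 ± 0.49), at under 1 CPM in every library. Of the 24, 13 were higher and 1 lower at an unadjusted p under 0.05 in edgeR, and DESeq2 called 9, all higher. The edgeR shares over all tested genes at that p were 10.6% higher and 5.94% lower.

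Signals that act on stromal cells changed in a smaller number. Tgfb2, a ligand of the TGF-beta family, had 9.49 and 8.88 CPM in WT vehicle, 9.31 and 9.42 in WT ifetroban, 38.5 and 22.2 in KO vehicle and 25.1, 19.4 and 18.1 in KO ifetroban. WT libraries differed by under 1 CPM and every KO library had at least 18.1, a difference of 1.44 ± 0.19 (edgeR adjusted p = 0.0248). Fstl1, a secreted follistatin-like protein, had 84.3 to 113 CPM in WT and 149 to 238 in KO (0.95 ± 0.13). No other of the 25 TGF-beta and BMP genes was called in edgeR, and 19 were positive (median 0.35). At an unadjusted p under 0.05, 11 of the 25 were higher and 0 lower in edgeR, and DESeq2 called 6, all higher. The edgeR shares over all tested genes at that p were 10.6% higher and 5.94% lower. Frzb, a secreted antagonist of Wnt ligands, had 3.64 and 3.55 CPM in WT vehicle, 7.93 and 6.1 in WT ifetroban, 17.1 and 13.8 in KO vehicle and 9.95, 8.61 and 11.7 in KO ifetroban. The difference was 1.31 ± 0.16 (edgeR adjusted p = 0.0212), and its lowest KO library was close to its highest WT library. No other of the 15 Wnt genes was called in edgeR. Of the 15, 7 were higher and 1 lower at an unadjusted p under 0.05 in edgeR, and DESeq2 called 4 higher and 1 lower. Aldh1a2, which makes retinoic acid and marks epicardium, had 5.18 and 3.51 CPM in WT vehicle, 3.49 and 2.61 in WT ifetroban, 85.7 and 11.9 in KO vehicle and 40.6, 21.6 and 15 in KO ifetroban, a difference of 3.28 ± 0.56 (edgeR adjusted p = 0.0454). KO vehicle replicates 1 and 2 were the highest and the lowest KO library, and without replicate 1 the difference was 2.26. No other of the 10 epicardial and mesothelial markers was called (list median 0.34). Sox9, a transcription factor of cartilage and valves, had 3.56 to 4.71 CPM in WT and 6.45 to 7.9 in KO (0.88 ± 0.16).

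Fibroblast markers were read beside the matrix genes. Of all tested genes 0.505% were called higher. Of 15 activated fibroblast markers 7 were called, among them Postn, Cthrc1, Thbs4 and Ltbp2 above (median 1.51, or 1.90 in the libraries low in long transcripts and 1.23 in the others). Their summed level was 251 to 328 CPM in WT and 616 to 1117 in KO. Of 15 general fibroblast markers 3 were called, Pcolce, Mfap5 and Cd248, a surface protein of stromal cells. The list median was 0.21, and the summed level of 1810 to 2176 CPM in WT overlapped the 1850 to 2692 in KO. The part of fibroblast number in the matrix genes was not tested.

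**Figure D3:**
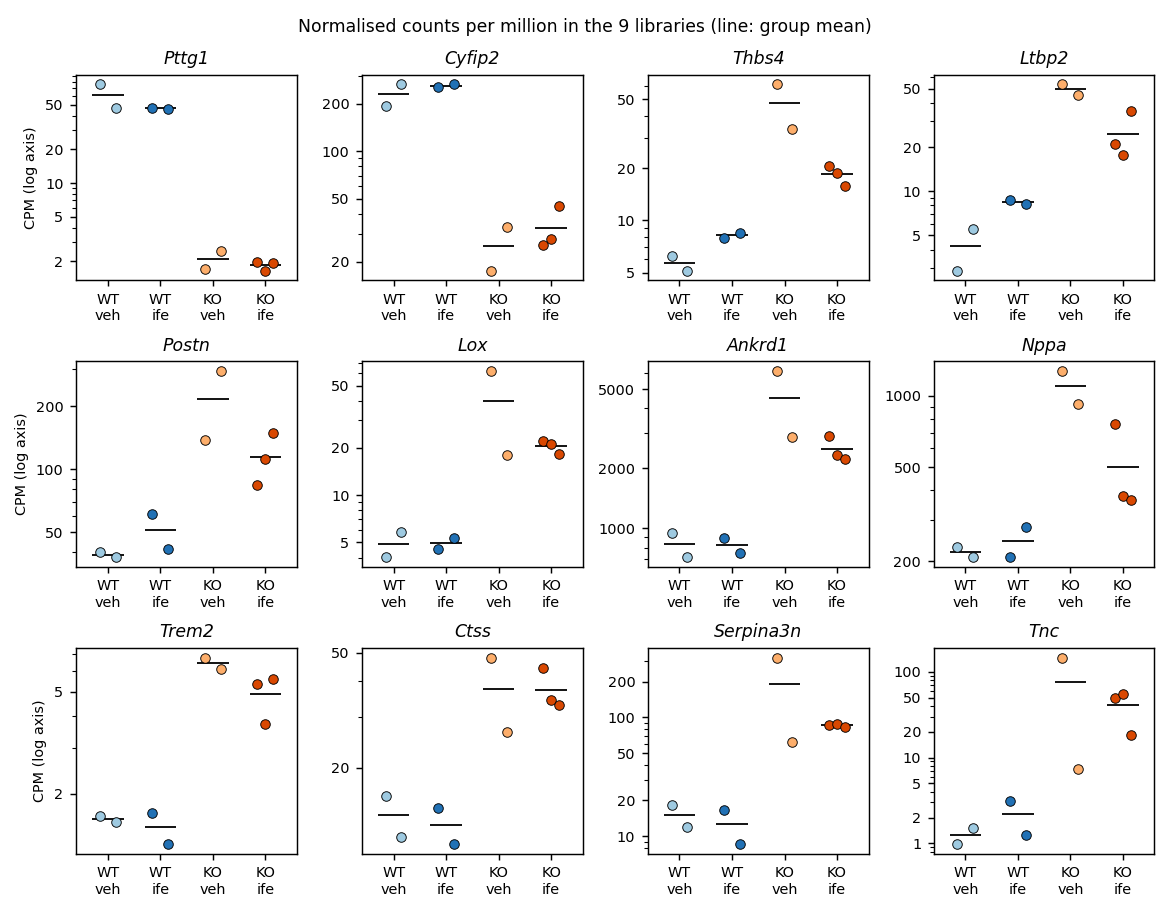
CPM of 12 genes in each library on log axes, with 1 panel per gene; points are libraries (2, 2, 2 and 3 per group from left to right), lines are group means. Pttg1 and Cyfip2 are low in all KO libraries, and in the other 10 genes every KO library lies above every WT library.

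Leukocyte genes formed the largest group. Fcrls, an Fc receptor-like protein of resident macrophages, had 6.41 and 5.52 CPM in WT vehicle, 5.17 and 5.62 in WT ifetroban, 16.8 and 15.6 in KO vehicle and 10.2, 11.1 and 12 in KO ifetroban. KO and WT libraries did not overlap, a difference of 1.24 ± 0.13 (edgeR adjusted p = 0.0107). Trem2, a lipid-sensing receptor of macrophages in damaged tissue, had 1.64 and 1.54 CPM in WT vehicle, 1.69 and 1.27 in WT ifetroban, 6.79 and 6.11 in KO vehicle and 5.37, 3.74 and 5.58 in KO ifetroban. KO libraries lay between 3.74 and 6.79 CPM and WT libraries below 2, a difference of 1.87 ± 0.21 (edgeR adjusted p = 0.0125). Ctss, a lysosomal protease of antigen-presenting cells, had 16 and 11.5 CPM in WT vehicle, 14.5 and 10.8 in WT ifetroban, 48.1 and 26.5 in KO vehicle and 44.3, 34.4 and 33.1 in KO ifetroban, with no overlap and a difference of 1.5 ± 0.21 (edgeR adjusted p = 0.0304). Lgals3, galectin-3 of activated macrophages, had 2.36 and 2.28 CPM in WT vehicle, 5.06 and 2.49 in WT ifetroban, 34 and 10.2 in KO vehicle and 27.8, 17 and 15.2 in KO ifetroban. KO vehicle replicate 2 was the lowest KO library, at 2 times the highest WT library, and the difference was 2.83 ± 0.39 (edgeR adjusted p = 0.0304).

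The Trem2 promoter is shown because it matches the letters searched for AP-1 and for PU.1, factors with known roles in myeloid cells. It lies at chr17:48346151-48346400 on the plus strand (RefSeq, GRCm38.p6). Capitals mark a match to TGANTCA (AP-1) at 9 bases and the PU.1 letters GAGGAA, read on the other strand, at 40 bases before the start. The search left the middle base N open, and the match reads TGAATCA, so whether it is an AP-1 site is not shown.

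Trem2 promoter: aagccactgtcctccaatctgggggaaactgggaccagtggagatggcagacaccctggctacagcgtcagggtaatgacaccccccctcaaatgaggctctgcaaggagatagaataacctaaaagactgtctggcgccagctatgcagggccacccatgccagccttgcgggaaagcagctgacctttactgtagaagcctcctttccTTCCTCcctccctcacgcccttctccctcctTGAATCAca

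Promoters were found for 60 genes that rose, 5 that fell and 11079 tested genes, each taken as 250 bases before the RefSeq start and searched on both strands. The AP-1 letters TGANTCA, with any base at N, were in 13.3% of promoters of genes that rose and 4.31% of all. The PU.1 letters GAGGAA were in 38.3% and 22.7%. The shares were 10% and 10.7% for the TEAD letters GGAATG, 6.67% and 5.90% for the STAT letters TTCNNNGAA, and 1.67% and 1.15% for the CArG box. The TEAD and PU.1 letters can overlap each other by bases, and a match describes letters, not binding. None of the 5 promoters of genes that fell held any of these letters.

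Other leukocyte genes covered enzymes, receptors and signalling proteins of myeloid cells. Lyz2, lysozyme of myeloid cells, had 89.4 to 142 CPM in WT and 217 to 368 in KO, a difference of 1.20 ± 0.19. Mpeg1, the pore protein perforin-2 of macrophages, had 7.8 to 15 and 23.4 to 36.9 (1.33 ± 0.21). Ptprc, the pan-leukocyte antigen CD45, had 6.1 to 8.74 and 11.9 to 15.9 (0.94 ± 0.16). Signalling adaptors and regulators of myeloid cells rose as well, with Tyrobp at 1.60, Lcp1 at 1.35, Nckap1l at 0.98 and the Src-family kinase Fgr at 3.80, or 2.72 without KO vehicle replicate 1. Receptors of complement fragments, C3ar1 (1.19 ± 0.18) and C5ar1 (1.57 ± 0.28), rose together with C4b, a complement component (1.55 ± 0.28). These 3 were the called members of 17 tested complement genes, all 17 of them positive (median 0.80). The shares over all tested genes were 0.505% called higher and 49.5% positive. Lyz2, C4b, Fcgr3 and the genes of the Cd300, Tmem176 and Serpina3 families have close copies in the genome. Reads that match more than 1 copy may be left uncounted or misassigned, so the values of these genes are uncertain.

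Over all tested genes 0.505% were called higher, 49.5% were positive and 5.03% had KO above WT without overlap. At an unadjusted p under 0.05, 10.6% were higher and 5.94% lower in edgeR, and DESeq2 called 643 genes higher and 111 lower. By cell type, 6 of 22 macrophage markers were called and none fell. Of these markers 21 were positive, the median was 1.04, and 16 of the 22 did not overlap between genotypes. Their summed level was 348 to 506 CPM in WT and 741 to 1052 in KO. In the 2 length classes the macrophage medians were 1.01 and 1.0. Of 25 lysosome and phagocytosis genes 5 rose and none fell, all 25 were positive and the median was 0.42. The 13 MHC class II and dendritic genes had 1 called member in edgeR, Ctss, which is also in the macrophage and lysosome lists. Of the 13, 12 were positive (median 0.92), 10 were higher at an unadjusted p under 0.05 in edgeR, and DESeq2 called 8 higher. Neutrophil markers were scarce: 4 of 11, the defining genes Ly6g, Camp, Ltf and Ngp, were below the filter on low counts. Csf3r, the receptor for granulocyte colony-stimulating factor, and Mmp8 were called among the other 7, and the summed neutrophil level was 3.29 to 12.5 CPM in WT and 11.9 to 31 in KO. All 7 were positive, 6 were higher at an unadjusted p under 0.05 in edgeR, and DESeq2 called 6 higher. Most T and NK cell markers, such as Cd3d, Cd3e and Nkg7, were below the filter, and edgeR called none of the 5 tested, with 3 higher at an unadjusted p under 0.05. Among 9 B cell markers and 5 mast cell markers edgeR also called none, with 1 B cell marker lower and 2 mast cell markers higher at an unadjusted p under 0.05. DESeq2 and limma voom called none of these either. Of 34 chemokines and cytokines edgeR and limma voom called none, while DESeq2 called 20, all higher in KO. Of the 34, 32 were positive with a median of 1.66, and in edgeR 24 were higher and 1 lower at an unadjusted p under 0.05. Cxcl16, a chemokine of macrophages, had a difference of 1.01 ± 0.18 (edgeR adjusted p = 0.0553) and Ccl12, a monocyte chemokine, of 2.99 ± 0.59 (edgeR adjusted p = 0.0607).

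**Figure D4:**
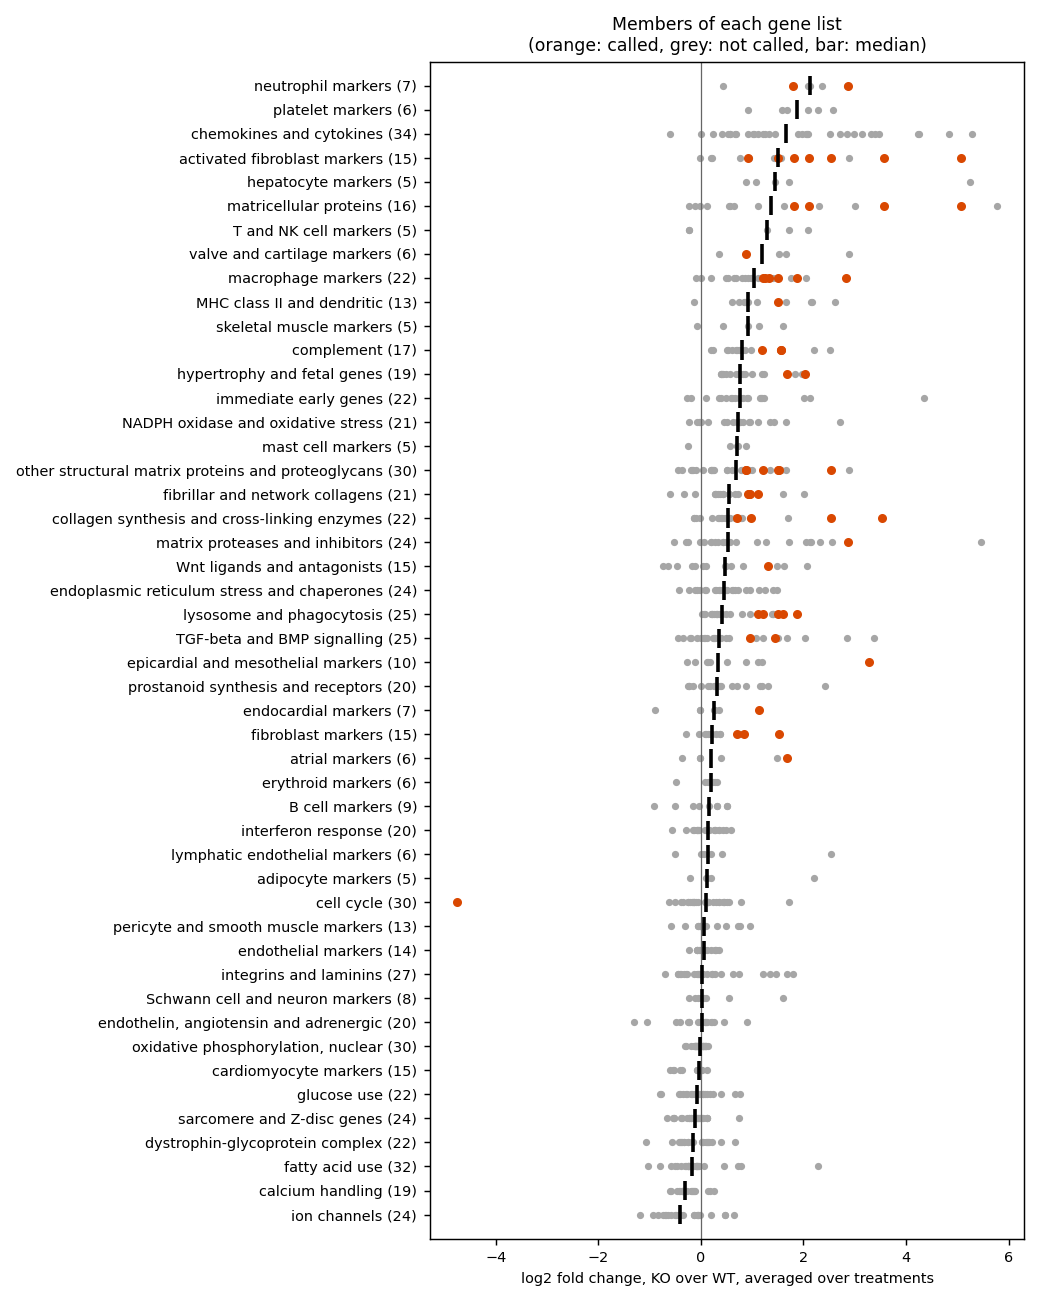
Averaged log2 difference, KO minus WT, of each tested member of the gene lists (1 row per list; orange points called, grey points not called, black bar the median). Lists of matrix, macrophage and complement genes lie mostly above 0, and ion channel and calcium handling genes mostly below 0 with no member called in edgeR.

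Stress genes of cardiomyocytes formed a smaller group. Ankrd1, a titin-associated ankyrin repeat protein induced by load, had 948 and 713 CPM in WT vehicle, 897 and 752 in WT ifetroban, 6190.1 and 2863 in KO vehicle and 2908, 2329.7 and 2225 in KO ifetroban. The lowest KO library was over 2 times the highest WT library, and KO vehicle replicate 1 stood above the rest; the difference was 2.02 ± 0.23 (edgeR adjusted p = 0.0142). Nppa, atrial natriuretic peptide, had 229.6 and 208 CPM in WT vehicle, 207 and 279 in WT ifetroban, 1277 and 922 in KO vehicle and 759, 379 and 363 in KO ifetroban, with no overlap and a difference of 1.68 ± 0.25 (edgeR adjusted p = 0.0324). Both KO vehicle libraries exceeded all 3 KO ifetroban libraries. Sprr1a, a small proline-rich protein induced by stress, had 0.308 and 0.193 CPM in WT vehicle, 0.345 and 0.119 in WT ifetroban, 37.3 and 2.42 in KO vehicle and 23.4, 7.36 and 4.3 in KO ifetroban, a difference of 5.96 ± 1.01 (edgeR adjusted p = 0.045), with KO libraries spread over more than 10 times; without KO vehicle replicate 1 the difference was 4.43. Dio2, which activates thyroid hormone, had 1.69 and 1.39 CPM in WT vehicle, 1.57 and 2.85 in WT ifetroban, 11.5 and 10.2 in KO vehicle and 3.41, 4.14 and 5.39 in KO ifetroban, a difference of 1.89 ± 0.24 (edgeR adjusted p = 0.0218). Per kilobase of exonic length, Ankrd1 had 287 in WT and 1145 in KO and Nppa 267 in WT and 856 in KO, in mean CPM per kilobase.

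The Ankrd1 promoter is shown because Ankrd1 is a known target of the cofactors that bind TEAD. It lies at chr19:36119845-36120094 on the minus strand (RefSeq, GRCm38.p6). RefSeq places the start of Ankrd1 inside the GENCODE gene, so the stretch overlaps the gene as GENCODE gives it. Capitals mark the TEAD letters GGAATG at 210 and 123 bases before the RefSeq start.

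Ankrd1 promoter: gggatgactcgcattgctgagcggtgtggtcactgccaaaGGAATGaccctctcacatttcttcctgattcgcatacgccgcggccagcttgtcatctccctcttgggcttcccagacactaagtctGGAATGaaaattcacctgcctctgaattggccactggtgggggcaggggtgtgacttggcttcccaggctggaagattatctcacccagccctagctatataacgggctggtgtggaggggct

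The shares over all tested genes were 0.505% called higher and 49.5% positive. Of 19 hypertrophy and fetal genes Ankrd1 and Nppa were called and all 19 were positive (median 0.77, or 0.90 in the libraries low in long transcripts and 0.36 in the others). The median was 1.35 under vehicle and 0.43 under ifetroban, a difference that was not tested for the list and cannot be fully told apart from length class. Nppb, brain natriuretic peptide, had a difference of 1.97 ± 0.38 (edgeR adjusted p = 0.0599), and Myh7, the slow myosin heavy chain, of 0.73 ± 0.35 (edgeR adjusted p = 0.33). Atrial tissue markers were read beside Nppa: Myl7, Sln, Mybphl and Bmp10 were below the filter in these libraries, and the summed atrial level, which includes Nppa, was 279 to 348 CPM in WT and 436 to 1333 in KO.

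Genes of acute-phase proteins rose in every KO library. Serpina3n, a secreted serine protease inhibitor, had 18.3 and 11.9 CPM in WT vehicle, 16.7 and 8.55 in WT ifetroban, 319 and 62.7 in KO vehicle and 86.9, 88.6 and 82.6 in KO ifetroban, a difference of 3.21 ± 0.45 (edgeR adjusted p = 0.0304). Haptoglobin, Hp, had 1.28 and 1.04 CPM in WT vehicle, 0.613 and 0.396 in WT ifetroban, 24.3 and 4.05 in KO vehicle and 6.54, 3.83 and 3.99 in KO ifetroban, a difference of 3.41 ± 0.52 (edgeR adjusted p = 0.0377). In both genes KO vehicle replicate 1 was over 3 times any other KO library, and the other 4 KO libraries still lay above all WT libraries. Without that library the differences were 2.40 for Serpina3n and 2.5 for Hp. Hepatocytes make much of the Hp in blood, and their markers were summed for this reason. The level was 2.36 to 4.77 CPM in WT and 3.19 to 78.9 in KO, the highest in KO vehicle replicate 1, where Alb, serum albumin, was at 59.7 CPM. Of the 5 tested hepatocyte markers edgeR and limma voom called none and DESeq2 called Alb and Ahsg, a liver glycoprotein, both higher, and in edgeR 4 were higher at an unadjusted p under 0.05. Apoa1, Serpina1a, Fgb and Fga were below the filter. The part of this signal in Hp and Serpina3n was not tested. The remaining genes that rose include Plvap, a diaphragm protein of endothelium, at 4.71 to 6.86 CPM in WT and 10.7 to 14.7 in KO (1.13 ± 0.17), and Apoe, apolipoprotein E of macrophages, at 187 to 244 and 313 to 459 (0.87 ± 0.13). Lrp8, an apolipoprotein E receptor, differed by 2.5 ± 0.45 (1.74 without KO vehicle replicate 1), and Gpr39, a zinc-sensing receptor, by 3.17 ± 0.49. Gpr39 rested on 7, 9, 5 and 3 reads in the WT libraries, and its lowest difference in a fit without 1 library was 2.58.

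Genes of muscle contraction, excitation and metabolism had no called member in edgeR or limma voom in any of the lists below. Of all tested genes 10.6% were higher and 5.94% lower at an unadjusted p under 0.05 in edgeR. DESeq2 called 643 of the 15261 tested genes higher and 111 lower. Of 19 calcium handling genes 16 were negative (median -0.31), 6 were lower at an unadjusted p under 0.05 in edgeR, and DESeq2 called 1, Hrc. Hrc, a calcium-binding protein of the sarcoplasmic reticulum, had 936 and 982 CPM in WT vehicle, 966 and 1011 in WT ifetroban, 626 and 713 in KO vehicle and 743, 733 and 777 in KO ifetroban. The KO libraries lay below the WT libraries without overlap, yet the difference of -0.46 ± 0.10 missed the threshold in edgeR (edgeR adjusted p = 0.0787). Atp2a2, the calcium pump of the same store, differed by -0.41 ± 0.13 (edgeR adjusted p = 0.181), with overlap. Of 24 ion channel genes 20 were negative (median -0.41), 9 were lower at an unadjusted p under 0.05 in edgeR, and DESeq2 called 4, all lower. Kcnv2 and Kcnd2, potassium channel subunits, differed by -1.18 ± 0.24 (edgeR adjusted p = 0.0607) and -0.84 ± 0.25 (edgeR adjusted p = 0.158). The ion channel median was -0.38 in the libraries low in long transcripts and -0.04 in the others, and the calcium handling median -0.27 and -0.09. Of 32 genes of fatty acid use 27 were negative (median -0.18), among them Ucp3, a mitochondrial uncoupling protein (-0.79 ± 0.20, edgeR adjusted p = 0.11). At an unadjusted p under 0.05, 2 of them were higher and 10 lower in edgeR, and DESeq2 called 2, both lower.

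Sarcomere and Z-disc genes had 17 of 24 members negative (median -0.11), and Myh6, the main myosin heavy chain of the adult mouse ventricle, had 15962 and 24007 CPM in WT vehicle, 24103 and 24430.0 in WT ifetroban, 11228 and 14188 in KO vehicle and 13383, 19903 and 22401 in KO ifetroban. The library labelled WT vehicle replicate 1 lay among the KO libraries, and the difference was -0.52 ± 0.18 (edgeR adjusted p = 0.217). Cardiomyocyte markers summed to 98970 to 100255 CPM in WT and 76827 to 91675 in KO, while no member was called by edgeR, DESeq2 or limma voom. Of the 15, 12 were negative and 4 were lower at an unadjusted p under 0.05 in edgeR. The list median was -0.04, and it was -0.29 and -0.16 in the libraries low and high in long transcripts. Nuclear genes of oxidative phosphorylation had a median of -0.03 over 30 members, and glucose use -0.07 over 22. In the same order of length classes the medians were -0.24 and -0.13 for oxidative phosphorylation and -0.13 and -0.15 for glucose use. In edgeR 2 oxidative phosphorylation and 3 sarcomere genes were lower at an unadjusted p under 0.05, and DESeq2 called none of either list. The share of all tested genes lower at that p was 5.94%, and 10.6% were higher. Of the glucose genes 4 were higher and 7 lower at that unadjusted p, and DESeq2 called 1 higher and 3 lower. Without TMM scaling, which adds 0.05, the cardiomyocyte and oxidative phosphorylation medians of the averaged difference, -0.04 and -0.03, turn positive. Of 22 tested genes of the dystrophin-glycoprotein complex edgeR called none and 12 were negative (median -0.16), with 1 higher and 3 lower at an unadjusted p under 0.05 and 1, Sgcd, called lower by DESeq2. The partner sarcoglycans Sgca and Sgcb had -0.25 ± 0.12 (edgeR adjusted p = 0.327) and -0.25 ± 0.12 (edgeR adjusted p = 0.319), with all KO libraries below all WT libraries in both. Endothelial markers, 14 tested, had a median of 0.06, no call in edgeR, DESeq2 or limma voom, and 0 at an unadjusted p under 0.05. Immediate early genes, 22 tested, had no call in edgeR, 4 higher at an unadjusted p under 0.05 and 2 called higher by DESeq2. Their median was 0.77, which was -0.46 in the libraries low in long transcripts and 0.41 in the others.

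Prostanoid genes were read because ifetroban blocks a prostanoid receptor. Tbxa2r, the receptor itself, had 2.92 and 3.55 CPM in WT vehicle, 3.6 and 1.94 in WT ifetroban, 4.42 and 5.32 in KO vehicle and 3.69, 1.96 and 4.03 in KO ifetroban, a difference of 0.40 ± 0.27 (edgeR adjusted p = 0.474) with overlap. Of 20 prostanoid genes edgeR and limma voom called none and DESeq2 called 4, all higher. In edgeR 6 were higher at an unadjusted p under 0.05, and 15 were positive (median 0.32). Of all tested genes 10.6% were higher at that p and 49.5% were positive. Ptgis, prostacyclin synthase, differed by 1.20 ± 0.25 (edgeR adjusted p = 0.0692) and Alox5ap, which presents arachidonic acid for leukotriene synthesis, by 1.30 ± 0.28 (edgeR adjusted p = 0.0766).

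Whether the knockout effect differed between vehicle and ifetroban was tested as an interaction. No gene passed in edgeR, where 211 had an unadjusted p under 0.05 (1.38% of the tested genes), and DESeq2 and limma voom also called 0. With no interaction in any gene, about 763 would reach that p by chance, so the low count does not show that the effects are equal. All 82 changed genes had the same sign under both treatments, as did 73.5% of all tested genes. Across tested genes the effects, which share no library, had a Pearson correlation of 0.628 and a Spearman correlation of 0.573, given as a description. Under each treatment a larger share of KO than of WT libraries was low in long transcripts. The part of this imbalance in the correlations was not tested. Among the 77 genes that rose, the difference was larger under vehicle in 56 and under ifetroban in 21, with medians of 1.44 and 1.16.

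By role the split was as follows, as counts without a test. The same split over all tested genes was not counted, so these counts have no baseline. All 4 cardiomyocyte stress genes, 19 of 20 matrix genes and all 9 stromal signal genes had the larger difference under vehicle. Of 29 leukocyte genes 13 had the larger difference under vehicle and 16 under ifetroban, with medians of 1.36 and 1.45. KO vehicle rests on 2 libraries, each low in long transcripts, so treatment and length class cannot be fully told apart. KO vehicle replicate 1 had the highest CPM of all KO libraries in 53 of the 77 genes. By role it was highest in 13 of 20 matrix, 5 of 9 stromal, 4 of 4 stress and 21 of 29 leukocyte genes. The smallest interaction p over all tested genes belonged to Thbs4, with differences of 3.06 ± 0.30 under vehicle and 1.17 ± 0.26 under ifetroban (interaction, edgeR adjusted p = 0.99993). Frzb had 2.10 ± 0.24 and 0.52 ± 0.21 (interaction, edgeR adjusted p = 0.99993), and Ltbp2 3.54 ± 0.39 and 1.54 ± 0.34 (interaction, edgeR adjusted p = 0.99993). None of the 3 is shown to differ between treatments, nor are the effects shown to be equal. Pttg1 had -4.87 ± 0.30 and -4.65 ± 0.25, and Cyfip2 -3.19 ± 0.37 and -2.99 ± 0.31.

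**Figure D5:**
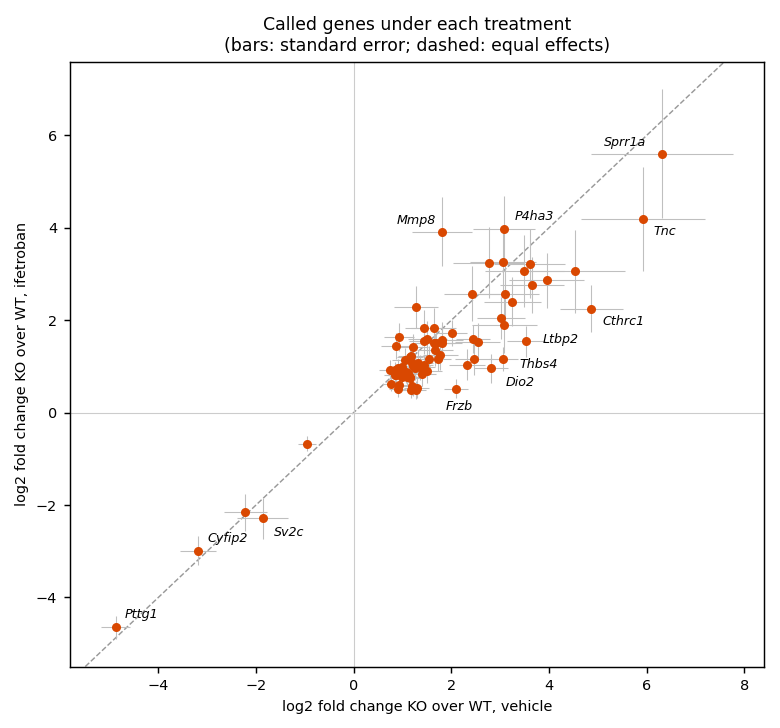
Log2 difference, KO minus WT, under ifetroban against that under vehicle for the 82 called genes, with standard errors as bars and equal effects as the dashed line. All points lie in the lower left or upper right part of the plot, and Thbs4, Ltbp2 and Frzb lie on the vehicle side of the line.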

How the data were processed

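Polyadenylated RNA of mouse left ventricle was sequenced in 9 libraries, grouped by the genotype and treatment in their titles. The authors deposited raw read counts per gene, in the layout of STAR's gene quantification. STAR 2.5.2b and HTSeq were used with build GRCm38, per the submitters' processing notes; the annotation release is not given in the sources used here. Of the stranded columns the reverse one was used, since its total over genes was 14.5 times the forward total. Rows that name no gene held 26.6% to 31.9% of the reads and were left out. Of 49671 gene identifiers, 49412 matched the GENCODE M21 annotation.

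The main test was edgeR's (4.0.16, R 4.3.3) glmQLFTest, a quasi-likelihood F test, on 15261 genes that passed filterByExpr, with TMM scaling and 1 coefficient per group. Tests were two-sided with Benjamini-Hochberg adjustment, and an adjusted p under 0.05 was called. Log2 fold changes carry edgeR's prior count of 0.125. Differences within length classes were taken from mean log2 CPM with a prior count of 2. Standard errors were calculated back from the F statistic and are approximate. The script was tested on simulated data. Libraries of a group differed beyond sampling noise (chi-square per degree of freedom 13.8 to 84.1 over 6 pairs), so none was counted as a copy. Values in every library are given for up to 15 higher and 10 lower called genes with the largest change and a mean log2 CPM of at least 1, up to 4 called genes per list, called genes within 10 Mb of Sgcd, Sgcd and Tbxa2r, or, in shorter form, as ranges. For a list with no call, up to 2 members with the smallest p are given as values only. Nppb, Myh7, Sgca and Sgcb were added for their known roles, after their values were seen. The comparison, the 28 pathway lists and 21 marker lists were chosen with earlier results of these data known. Alternatives were DESeq2 1.42.0, limma 3.58.1 (voom with quality weights), RLE factors, no filter, unstranded counts, a replicate block, a length class term, an additive model and leaving out libraries.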

Additional observations from a re-analysis of the deposited data

Results flagged for a closer look

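Among the genes with values described here, 15 had 1 library far from the others of its genotype on the log2 CPM scale, by a gap test. Chance alone adds about 1 in 20 groups to this test, so it may account for part of the 15. The library labelled WT vehicle replicate 1 accounts for 8 of them. It had the lowest WT level of Sgcd (11.1 CPM), Cyfip2 (194), Myh6 (15962), Cmya5 (658) and Mmrn1 (4.41), and the highest of Pttg1 (76.7), Myl1 (39.3) and Alox5ap (9.03). KO vehicle replicate 1 had the highest KO level of Ankrd1 (6190 CPM), Serpina3n (319), Loxl1 (115), Lox (62.2) and Hp (24.3). WT vehicle replicate 2 was the highest WT library for P4ha3 (0.154 CPM), and WT ifetroban replicate 1 for Lgals3 (5.06 CPM).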

How the results depend on the processing

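All 82 called genes kept their sign in every fit run, in libraries that also served to choose them. The genes called higher and lower, 77 and 5 with edgeR and TMM, numbered 643 and 111 with DESeq2 and 1193 and 491 with no filter on low counts. They numbered 38 and 6 with limma voom, 7 and 2 with the length class term, 133 and 11 in the additive model, 57 and 5 with RLE factors, and 74 and 6 with unstranded counts. Leaving out each library in turn gave 0 to 1337 higher and 2 to 741 lower. Without both the library labelled WT vehicle replicate 1 and KO vehicle replicate 1 they numbered 22 and 3. The interaction, with no call in edgeR, had 16 higher and 57 lower with no filter. The cause of these differences between tools was not tested.

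A fit with the replicate number as a block called 428 higher and 103 lower. The labels do not say what a replicate number shares across groups. The correlation of deviations was 0.00108 to 0.478 over 12 same-numbered pairs of libraries, positive in all 12 and over 0.1 in 5, which falls short of the rule that every pair be over 0.1. Whether the numbers pair the samples is not settled, and the block is given here only.

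The log2 difference of Sgcd passed the threshold with DESeq2 (-1.08), with no filter (-1.08) and with the replicate block (-1.18), and without KO vehicle replicate 2 (-1.27); leaving out each library gave -1.33 to -0.66. Nonoverlapping genes with KO below numbered 348 with TMM scaling and 124 without it. Leaving out each library gave 817 to 1467 genes with KO above and 375 to 1088 with KO below, the most without the library labelled WT vehicle replicate 1. Genes at a few reads per library, such as P4ha3, Mmp8, Cthrc1, Gpr39 and Fgr in WT, are limited by counting error.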

Other observations

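Several genes with large differences did not pass the threshold and are given as values, chosen after they were seen. Spp1, osteopontin of macrophages and fibroblasts, had 0.205 and 0.348 CPM in WT vehicle, 0.728 and 0.475 in WT ifetroban, 36.9 and 2.18 in KO vehicle and 56.8, 19.4 and 5.78 in KO ifetroban, a difference of 5.78 ± 1.05 (edgeR adjusted p = 0.0529). Timp1, an inhibitor of matrix metalloproteases, had 3.18 and 1.35 CPM in WT vehicle, 3.07 and 0.911 in WT ifetroban, 337 and 10.1 in KO vehicle and 96.7, 31.9 and 21.2 in KO ifetroban, a difference of 5.46 ± 1.03 (edgeR adjusted p = 0.058). In both genes every KO library lay above every WT library. Ccn2, a matricellular growth factor, had 47.8 to 67.4 CPM in WT and 139 to 841 in KO, a difference of 2.31 ± 0.43 (edgeR adjusted p = 0.058).

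Single libraries stood out in genes of other tissues. Alb, serum albumin, was at 59.7 CPM in KO vehicle replicate 1 and at 4.58 CPM or less elsewhere. Tnnt3, troponin T of fast skeletal muscle, was at 6.12 CPM in KO ifetroban replicate 3 and under 1 CPM in every other library. Neither gene was called in edgeR (edgeR adjusted p = 0.19 and edgeR adjusted p = 0.361), and DESeq2 called Alb.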
